A study of Mus musculus with 4 samples.

Results

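Levels of 10 antiviral genes induced by type I interferon were compared in CD45+ cells of skin tumors and control skins. The genes are Ifit1, Ifit2, Ifit3, Ifit3b, Isg15, Rsad2, Usp18, Oasl1, Oasl2 and Mx1. They were taken as a named list of antiviral effectors, chosen with earlier results of these data known, and all 10 were found among the 31053 genes of the deposited tables. The tumors came from 2323, a mouse tumor cell line started from a graft of a genetically engineered model, in which Cre is switched on through rtTA under the keratin 14 promoter of skin epithelium. Cells of this line were placed under the flank skin of C57BL/6 mice aged 8 to 10 weeks, and the tumors were taken about 2 weeks later. The control skins came from C57BL/6 animals that received no cells. The 2 control skins and the 2 skin tumors were digested with collagenase, sorted for live CD45+ cells, which excludes most non-immune cells, and loaded on a 10x Genomics 3′ single-cell platform. All tumors derived from this 1 line, control skins did not receive a mock injection, and the labels do not say whether the samples of a group were separate mice, so p-values measure only the spread between these samples.

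Type I interferons are secreted by cells that sense foreign or misplaced nucleic acid. They act through the receptor chains Ifnar1 and Ifnar2 and the kinases Jak1 and Tyk2, which lead to a transcription factor complex that binds interferon-stimulated response elements (ISRE) in promoters. Type II interferon, encoded by Ifng, acts through its own receptor, mainly at gamma-activated sites (GAS), and it induces part of the same genes. The genes described here are classical targets of this pathway. Isg15 encodes a ubiquitin-like modifier, and Usp18 encodes the protease that removes it from proteins and also dampens signaling at Ifnar2. The Ifit proteins bind viral RNA or partner proteins and limit translation. Rsad2 encodes viperin, an enzyme that produces a chain-terminating nucleotide. Oasl1 and Oasl2 belong to the oligoadenylate synthetase-like family, and Oasl1 is known to restrain translation of Irf7. Mx1 encodes a dynamin-like GTPase active against influenza virus, and common laboratory strains such as C57BL/6 carry a defective Mx1 allele, so its transcript is read here only as an interferon target.

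In the GRCm38 annotation, Ifit2, Ifit3, Ifit3b and Ifit1 lie in this order on the plus strand of chromosome 19, between 34550694 and 34650009. Oasl2 and Oasl1 are neighbours on chromosome 5, between 114896936 and 114937915. Isg15 is on chromosome 4 (156199424 to 156200818), Rsad2 on chromosome 12 (26442746 to 26456452), Usp18 on chromosome 6 (121245906 to 121270917) and Mx1 on chromosome 16 (97447035 to 97462907). All are protein coding, with 2 exons in Isg15 and 15 in the reference transcript of Mx1. Ifit3 and Ifit3b are close copies of each other, since 51.2% of the 50-base windows of the Ifit3 transcript and 44.5% of those of Ifit3b also occur in the other. In the last 500 bases, which 3′ libraries mainly read, the shared part was 14.9% in Ifit3 and 0% in Ifit3b, and the split of reads between both genes is uncertain.

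The promoters of these genes were searched for the elements named above, and those with an ISRE match are printed to show it; binding was not measured. RefSeq (GRCm38.p6) had promoter entries for 8 of the 10 genes, with Usp18 and Mx1 not among them. The ISRE core was searched as GAAANNGAAA on both strands, with overlapping matches counted, from 250 bases before to 50 after the start of each gene. It was present for 5 of the 8 genes, Ifit1, Ifit3, Ifit3b, Isg15 and Rsad2, against 3.44% of all 32851 promoters of the same length. A GAS, searched as TTCNNNGAA, was present for 1 of the 8, Ifit2, and in 8.3% of all promoters. The 250 bases before the start of the 5 genes with an ISRE follow, 5′ to 3′ on the strand of the gene, with the ISRE matches in capitals. The windows are chr4:156200819-156201068 (minus strand) for Isg15, chr19:34640639-34640888 for Ifit1, chr19:34583279-34583528 for Ifit3, chr19:34607707-34607956 for Ifit3b (all plus strand) and chr12:26456453-26456702 (minus strand) for Rsad2.
Isg15: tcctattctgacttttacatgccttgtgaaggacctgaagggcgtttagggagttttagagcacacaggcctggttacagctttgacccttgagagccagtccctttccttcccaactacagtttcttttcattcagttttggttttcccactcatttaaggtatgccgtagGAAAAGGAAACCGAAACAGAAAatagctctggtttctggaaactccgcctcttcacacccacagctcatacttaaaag
Ifit1: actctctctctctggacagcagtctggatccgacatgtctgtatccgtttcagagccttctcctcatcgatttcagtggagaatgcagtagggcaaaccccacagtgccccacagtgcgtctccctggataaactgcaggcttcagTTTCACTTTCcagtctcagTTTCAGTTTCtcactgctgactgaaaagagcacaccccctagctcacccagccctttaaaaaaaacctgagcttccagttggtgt
Ifit3: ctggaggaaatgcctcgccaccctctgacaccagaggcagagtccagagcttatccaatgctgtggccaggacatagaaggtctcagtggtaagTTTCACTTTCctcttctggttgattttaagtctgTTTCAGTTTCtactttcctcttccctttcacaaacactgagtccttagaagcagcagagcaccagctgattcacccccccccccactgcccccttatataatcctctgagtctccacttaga
Ifit3b: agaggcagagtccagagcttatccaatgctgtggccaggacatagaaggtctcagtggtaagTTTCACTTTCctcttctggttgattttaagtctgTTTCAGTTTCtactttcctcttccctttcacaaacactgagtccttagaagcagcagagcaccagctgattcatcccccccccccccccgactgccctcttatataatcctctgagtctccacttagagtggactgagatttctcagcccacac
Rsad2: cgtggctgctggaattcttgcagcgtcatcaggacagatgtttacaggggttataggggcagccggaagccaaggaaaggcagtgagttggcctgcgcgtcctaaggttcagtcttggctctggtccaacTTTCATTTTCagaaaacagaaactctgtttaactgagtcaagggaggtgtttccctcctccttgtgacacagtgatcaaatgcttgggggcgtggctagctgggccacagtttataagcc
Isg15 held 3 overlapping matches on the strand of the gene, between 78 and 57 bases before the start. Ifit1, Ifit3 and Ifit3b each held 2 matches on the opposite strand, and the same 2 decamers, TTTCACTTTC and TTTCAGTTTC, stood in this order in all 3. Rsad2 held 1, TTTCATTTTC, from 120 to 111 bases before the start. A match is a description of the letters and not of binding, and the genes without one may hold other forms of the element or elements outside the window.

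The tables held 34893543 to 73904272 unique molecular identifier (UMI) counts per sample. After filtering, 2981 and 3089 cells of control skins 1 and 2 and 4784 and 1994 cells of skin tumors 1 and 2 remained, at medians of 10610 to 13361.5 UMIs per cell. Cells were assigned to 15 types by counts of marker genes that include none of the 10 genes, and 8100 of 12848 cells (63.0%) entered a type. A level is the summed UMIs of a gene per 10,000 UMIs of all genes over the cells of 1 type in 1 sample. For 11 types every sample had at least 10 cells, and these were tested: macrophages, monocyte-like cells, conventional dendritic cells of type 1 (cDC1) and type 2 (cDC2), migratory or mature dendritic cells (mDC), neutrophils, mast cells, CD8 T cells, CD4 T cells, regulatory T cells (Tregs) and NK cells. Each of the 11 tested types expressed all of its own markers in both groups. The same markers set the gates, so this is not an independent check of the types. Langerhans cells (LC), dendritic epidermal T cells (DETC), dermal γδT cells and ILC2 had 1 to 18 cells in each skin tumor and were not tested. Between 7 and 13 cell barcodes of a sample also occurred in another. In sums over cells, more expressing cells and more RNA per cell cannot be told apart.

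In most of the 11 tested cell types, most of the antiviral genes had higher levels in both skin tumors than in both control skins. The exceptions were cDC1 (4 of 10 genes), neutrophils (5) and mast cells (2). Of the 110 combinations of 11 cell types and 10 genes, 80 had both skin tumors above both control skins and 0 had both below, where 25.9% of all combinations of a type and a gene had both tumors above. The share of all combinations with both tumors below is not given here. Of the 110, 77 passed the filter on low counts and were tested with the quasi-likelihood test of edgeR with Benjamini-Hochberg adjustment over all genes of a type. Of these, 25 rose while 0 fell, against 1.97% of all tested combinations that rose. Falls were also few over all genes, at 1885 of 73037 tested combinations. A gene could pass the filter through skin tumors alone, so the tested combinations are not a neutral sample of the 110, and 33 were not tested. In 17 combinations both control skins held 0 UMIs. The rises were in 6 cell types: CD4 T cells (8 genes), cDC2 (7), CD8 T cells (4), NK cells (3), Tregs (2) and mast cells (1).

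**Figure D1:**
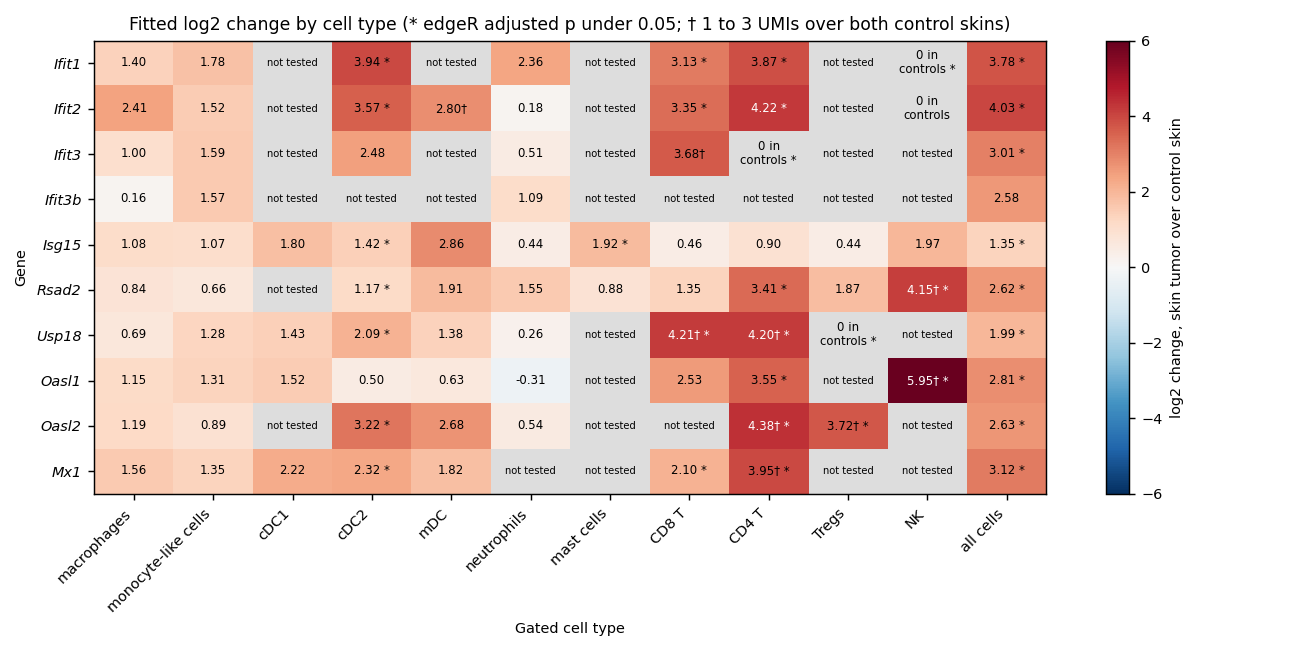
Fitted log2 change, skin tumor over control skin, of each gene (rows) in each gated cell type and in all cells (columns). Red is higher in skin tumors, an asterisk marks an adjusted p under 0.05, a dagger marks 1 to 3 UMIs over both control skins, and grey cells were not tested or had 0 UMIs in both control skins. The asterisks lie in cDC2, mast cells, T cells, NK cells and all cells, with 0 in macrophages, monocyte-like cells, cDC1, mDC and neutrophils.

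The share of all genes that rose differed between these types. It was 5.77% in cDC2, where 7 of 10 genes rose, 4.27% in CD4 T cells (8 genes), 2.82% in CD8 T cells (4), 2.73% in Tregs (2), 2.08% in mast cells (1) and 0.488% in NK cells (3). In 5 types none of the 10 genes rose in the edgeR test. In macrophages 0.275% of all genes rose, and 7 of the 10 antiviral genes had an unadjusted p under 0.05 while DESeq2 called 4. In monocyte-like cells (0.0884% of all genes), 8 had an unadjusted p under 0.05 and DESeq2 called 2. In cDC1 (0.842%), 4 had an unadjusted p under 0.05 and DESeq2 called 0, and in mDC (0.881%) the numbers were 6 and 1. In neutrophils (0%), they were 2 and 0. All shares in this paragraph are of the edgeR test at an adjusted p under 0.05. Shares of all genes at an unadjusted p under 0.05 or by DESeq2 are not given, so those counts have no like share beside them.

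Several of these counts rested on single samples. In CD4 T cells 8 genes rose with all samples, 1 without control skin 1 and 5 without control skin 2. In CD8 T cells the 4 became 2 without control skin 1 and 0 without skin tumor 1. In Tregs the 2 became 0 without skin tumor 1, 7 without control skin 2 and 4 without skin tumor 2, and in mast cells the 1 became 0 without either control skin. In NK cells 3 genes became 7 without control skin 1, 8 without control skin 2 and 7 without skin tumor 2. In macrophages, 5 genes rose without skin tumor 1 and 8 without skin tumor 2, and in cDC1 7 rose without skin tumor 2, which holds 12 cDC1. Without skin tumor 2, 4 genes rose in monocyte-like cells and 1 in mDC, where leaving out control skin 2 gave 2. In cDC2 the count stayed between 6 and 10. Where a sample is left out, the lone sample of its group is assumed to vary like the other group. The share of all genes that rose in these fits is not given here, so a changed count cannot be read as particular to the 10 genes.

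**Figure D2:**
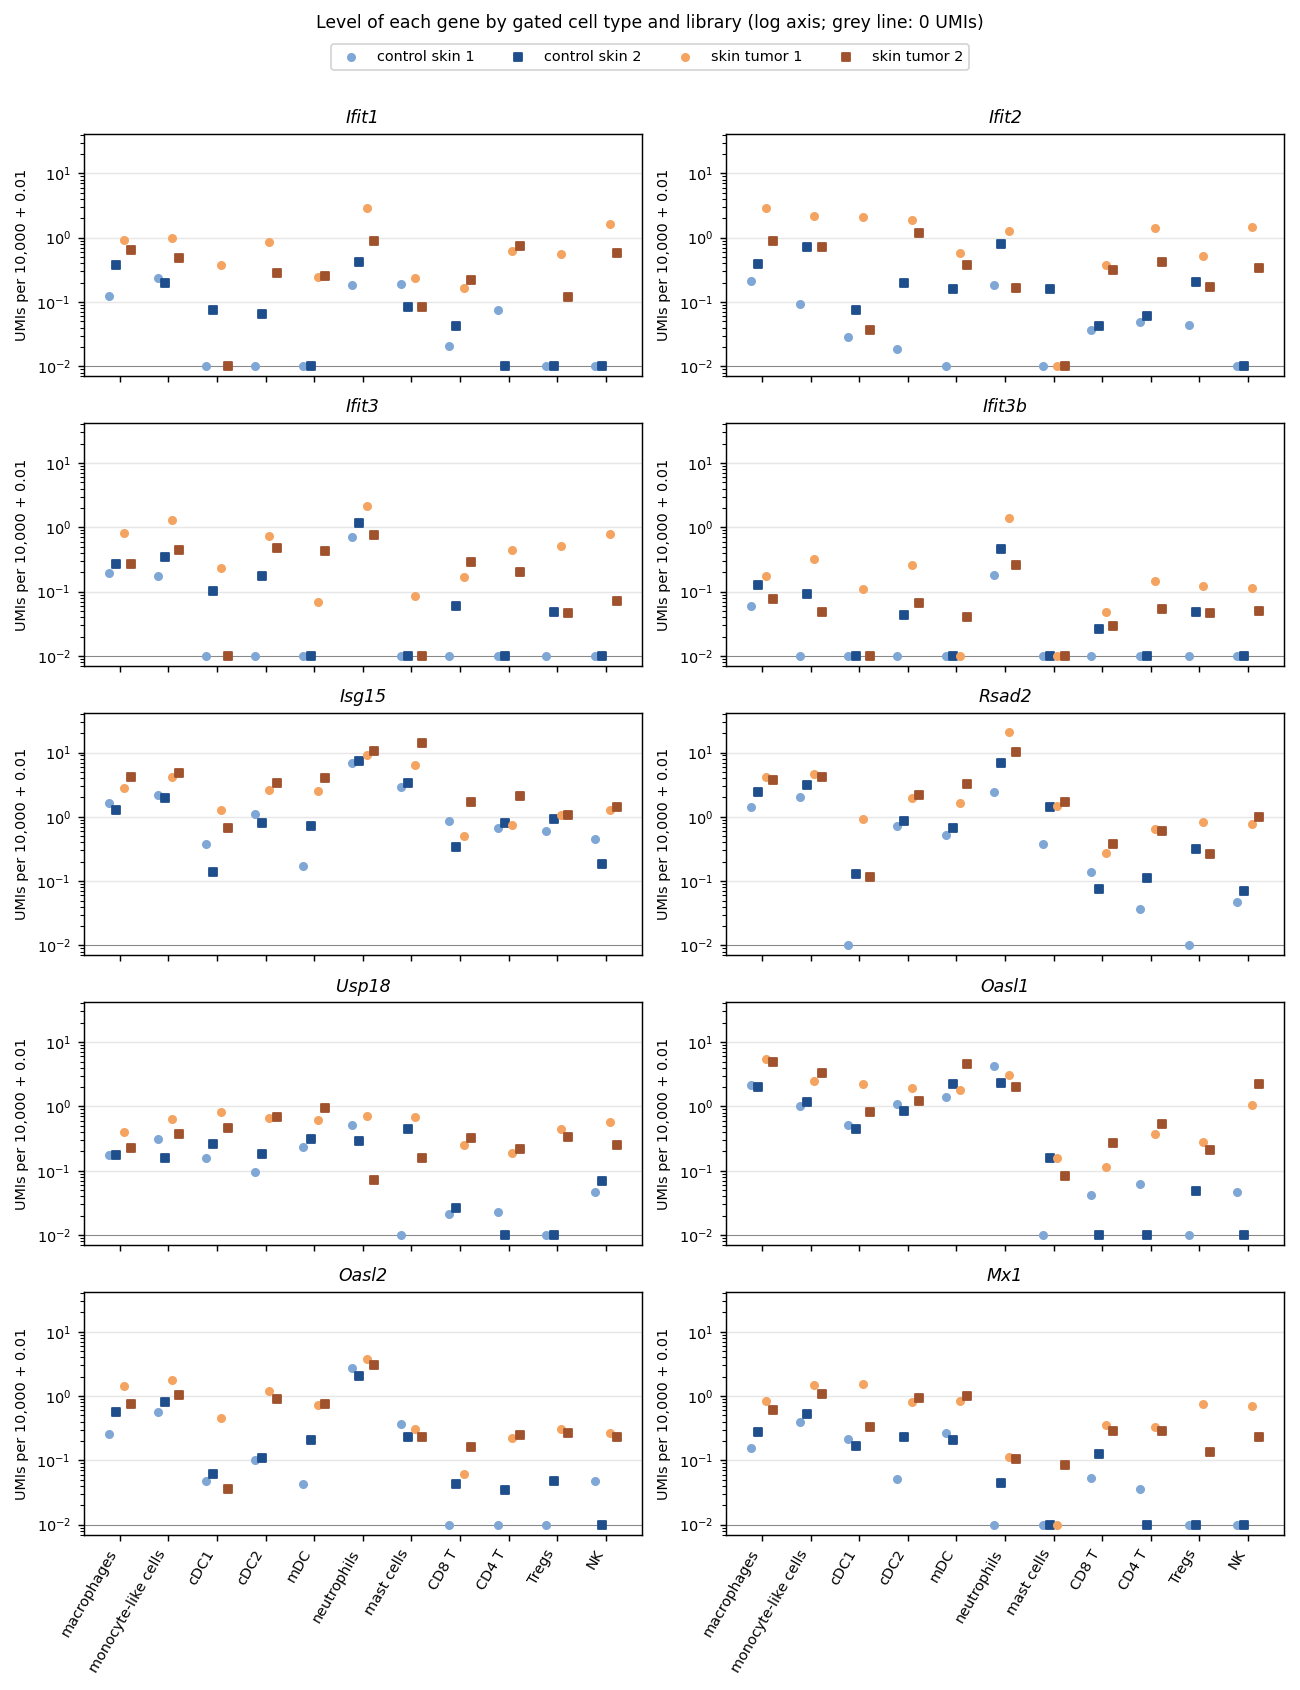
Level of each gene in each gated cell type, as UMIs per 10,000 UMIs plus 0.01 on a log axis, with 1 point per sample (blue shades, control skins; orange shades, skin tumors; the grey line is 0 UMIs). Skin tumors lie above control skins for most genes, with neutrophils highest for Rsad2. NK cells of control skins lie at 0 for Ifit1, Ifit3 and Mx1. T cell types of control skins lie between 0 and 0.114 UMIs per 10,000 for these genes, highest for Mx1 in CD8 T cells.

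Isg15, the modifier itself, was the only one of the 10 genes tested in all 11 types, and it rose in cDC2 and mast cells. In cDC2 its level was 1.09 and 0.782 UMIs per 10,000 in control skins, against 2.58 and 3.31 in skin tumors, and it rose 2.67-fold (log2 change 1.42, SE 0.25, adjusted p = 0.0119). Both tumors were above both control skins. In mast cells, known for granule proteases, it was 2.90 and 3.41 in control skins, against 6.39 and 14.2 in skin tumors, and it rose 3.77-fold (log2 change 1.92, SE 0.44, adjusted p = 0.0425). Skin tumor 2 was the highest sample there, and both tumors were above both control skins. In macrophages Isg15 was 1.64 and 1.29 in control skins, against 2.79 and 4.09 in skin tumors, which did not pass the test (log2 change 1.08, SE 0.26, adjusted p = 0.159). CD4 T cells had 0.659 and 0.781 in control skins, against 0.738 and 2.07 in skin tumors, so that the groups overlapped (log2 change 0.90, adjusted p = 0.283, and -0.03 without skin tumor 2). In CD8 T cells, 0.867 and 0.326 in control skins, against 0.492 and 1.67 in skin tumors overlapped as well (log2 change 0.46, adjusted p = 0.678, and -0.02 without control skin 2 and -0.49 without skin tumor 2). Without control skin 2 the change in cDC2 was 1.14 on the log2 scale and no longer passed the test, and without control skin 1 or control skin 2 the change in mast cells was 1.82 or 2.03 and did not pass.

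Usp18, which removes Isg15 from proteins, rose in cDC2, CD8 T cells, CD4 T cells and Tregs. In cDC2 its level was 0.084 and 0.17 UMIs per 10,000 in control skins, against 0.643 and 0.683 in skin tumors (4.24-fold, log2 change 2.09, SE 0.34, adjusted p = 0.00914). The 2 tumors differed little and stood well above the control skins. In T cells of control skins the transcript was almost absent, with 3 UMIs over both control skins in CD8 T cells against 126 over both skin tumors. This is a ratio of the pooled levels of 20.3 (95% counting interval 6.79 to 99.7, adjusted p = 0.0064). For CD4 T cells 1 UMI in control skins stood against 46 in skin tumors (ratio 22.4, interval 3.82 to 902, adjusted p = 0.0247). In Tregs 0 UMIs stood against 57, which is at least 7.38-fold higher when the control skins are set to 3 UMIs over the group (adjusted p = 0.0113). In macrophages Usp18 was 0.165 in both control skins and 0.392 and 0.213 in skin tumors (adjusted p = 0.434). Without control skin 2 the log2 change in cDC2 was 2.67. The call in CD8 T cells was lost without skin tumor 1 (4.42). In Tregs it was lost without skin tumor 2, and without skin tumor 1 the gene was not tested. The CD4 T cell call was lost with any 1 of the 4 samples left out, at fitted log2 changes of 3.60 to 7.17.

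The Ifit genes, which encode RNA-binding proteins that block translation, showed their clearest differences in cDC2, CD4 T cells, CD8 T cells and NK cells. Ifit1 was 0 and 0.0547 UMIs per 10,000 in cDC2 of control skins and 0.851 and 0.27 in skin tumors (15.4-fold, log2 change 3.94, SE 0.80, adjusted p = 0.0182). CD4 T cells had 0.0659 and 0 in control skins, against 0.616 and 0.743 in skin tumors (14.6-fold, log2 change 3.87, SE 0.61, adjusted p = 0.0108). Both tumors were above both control skins in both types. In CD8 T cells Ifit1 was 0.0109 and 0.0326 in control skins, against 0.154 and 0.206 in skin tumors (8.73-fold, log2 change 3.13, SE 0.66, adjusted p = 0.0259). In NK cells Ifit1 had 0 UMIs in both control skins and 1.6 and 0.566 UMIs per 10,000 in skin tumors, at least 17.9-fold higher with control skins set to 3 UMIs over the group (adjusted p = 0.0362). The NK cells of control skins were 21 and 13 cells, in which 3 UMIs correspond to 0.0685 per 10,000. In cDC2 the call of Ifit1 held with any 1 sample left out, at a log2 change of 3.16 without control skin 1 and 2.85 without skin tumor 1, and without control skin 2 the remaining control skin had 0 UMIs. In CD4 T cells it also held with any 1 sample left out, at 3.17 without control skin 2. The CD8 T cell call was lost without control skin 1 (2.31) and without skin tumor 1 (3.35), and the change was 3.71 without control skin 2. In NK cells it was lost without skin tumor 1.

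Ifit2 rose in cDC2, CD8 T cells and CD4 T cells. In cDC2 it was 0.0084 and 0.186 UMIs per 10,000 in control skins, against 1.86 and 1.17 in skin tumors (11.9-fold, log2 change 3.57, SE 0.62, adjusted p = 0.0114). CD4 T cells had 0.0396 and 0.0504 in control skins, against 1.38 and 0.402 in skin tumors (18.7-fold, log2 change 4.22, SE 0.79, adjusted p = 0.0196). CD8 T cells had 0.0273 and 0.0326 in control skins, against 0.36 and 0.3 in skin tumors (10.2-fold, log2 change 3.35, SE 0.49, adjusted p = 0.00679). The groups were apart in all 3 types, and skin tumor 1 was the higher of the tumors in each. In macrophages Ifit2 was 0.2 and 0.385 in control skins, against 2.86 and 0.871 in skin tumors, which did not pass the test (log2 change 2.41, SE 0.57, adjusted p = 0.151). In cDC2 the log2 change was 2.79 without control skin 1 and 7.08 without control skin 2, which leaves 1 UMI in the remaining control skin. The CD4 T cell call was lost without control skin 1 (4.09) or control skin 2 (4.28), and the change was 3.10 without skin tumor 1 and 4.85 without skin tumor 2. The CD8 T cell call was lost without skin tumor 1 (3.19).

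Ifit3 rose in CD4 T cells, where 0 UMIs in both control skins stood against 0.438 and 0.192 UMIs per 10,000 in skin tumors. This is at least 12.3-fold higher with control skins set to 3 UMIs over the group (adjusted p = 0.0207), and the call was lost without control skin 1. In cDC2 Ifit3 was 0 and 0.164 in control skins, against 0.724 and 0.469 in skin tumors (log2 change 2.48, SE 0.76, adjusted p = 0.0649). With 1 sample left out, the log2 change there was 1.64 to 9.22. In macrophages it was 0.186 and 0.261 in control skins, against 0.794 and 0.257 in skin tumors, with skin tumor 2 between the control skins. Its close copy Ifit3b was tested in 3 types and did not pass the test in any of them, with adjusted p-values of 0.647 to 0.944. Ifit3b had both tumors above both control skins in 4 of 11 types, the fewest of the 10 genes.

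Rsad2, which encodes viperin, rose in cDC2, CD4 T cells and NK cells. In cDC2 it was 0.706 and 0.853 UMIs per 10,000 in control skins, against 1.98 and 2.16 in skin tumors (2.24-fold, log2 change 1.17, SE 0.20, adjusted p = 0.0113). CD4 T cells had 0.0264 and 0.101 in control skins, against 0.641 and 0.595 in skin tumors (10.6-fold, log2 change 3.41, SE 0.50, adjusted p = 0.00856). In NK cells 2 UMIs in control skins stood against 115 in skin tumors (ratio 18.5, 95% counting interval 5.01 to 155, adjusted p = 0.0171). Both tumors were above both control skins in all 3 types. Neutrophils had the highest Rsad2 of all types, at 2.39 and 6.96 in control skins, against 20.7 and 10.0 in skin tumors, and the change did not pass the test (log2 change 1.55, SE 0.48, adjusted p = 0.701). In macrophages it was 1.42 and 2.42 in control skins, against 4.16 and 3.67 in skin tumors (log2 change 0.84, SE 0.28, adjusted p = 0.275). The call in cDC2 was lost without control skin 1 (1.03) or control skin 2 (1.26). The CD4 T cell call was lost without control skin 1 (2.58), and the change was 4.32 without control skin 2. In NK cells the call held in each of the 4 fits without 1 sample.

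Oasl2 in cDC2 had the smallest adjusted p of the 77 tested combinations. It was 0.0924 and 0.0984 UMIs per 10,000 in control skins, against 1.2 and 0.896 in skin tumors (9.32-fold, log2 change 3.22, SE 0.28, adjusted p = 0.00146). The call held in each fit without 1 sample, at log2 changes of 2.99 to 3.34. For CD4 T cells 1 UMI in control skins stood against 53 in skin tumors (ratio 25.8, 95% counting interval 4.43 to 1036, adjusted p = 0.0249), and in Tregs 1 against 40 (ratio 15.5, interval 2.63 to 629, adjusted p = 0.0436). The call in CD4 T cells was lost without control skin 1 or skin tumor 2. The call in Tregs was lost without control skin 1 and held without control skin 2, and Oasl2 in Tregs was not tested without either tumor.

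Oasl1, its neighbour on chromosome 5, rose in CD4 T cells and NK cells. In NK cells 1 UMI in control skins stood against 199 in skin tumors, with levels of 1.04 and 2.2 UMIs per 10,000 in the tumors (ratio 64.0, 95% counting interval 11.4 to 2542, adjusted p = 0.013). In CD4 T cells Oasl1 was 0.0527 and 0 in control skins, against 0.357 and 0.525 in skin tumors (11.7-fold, log2 change 3.55, SE 0.69, adjusted p = 0.0227). Both tumors were above both control skins in both types. In macrophages Oasl1 was 2.13 and 2.02 in control skins, against 5.37 and 4.98 in skin tumors, the closest of the 10 genes to the threshold there (log2 change 1.15, SE 0.17, adjusted p = 0.0587). In neutrophils it was 4.27 and 2.32 in control skins, against 3.08 and 2.02 in skin tumors, the only tested combination with a fitted change below 0 (log2 change -0.31, SE 0.40, adjusted p = 0.915), which was 0.11 without control skin 1. The NK call held in each fit without 1 sample. The CD4 T cell call was lost without control skin 1, which leaves 0 UMIs in the remaining control skin, and without control skin 2 (2.86).

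Mx1 rose in cDC2, CD8 T cells and CD4 T cells, and it had both tumors above both control skins in 10 of 11 types, the most of the 10 genes. In cDC2 it was 0.042 and 0.224 UMIs per 10,000 in control skins, against 0.795 and 0.911 in skin tumors (4.99-fold, log2 change 2.32, SE 0.50, adjusted p = 0.0219). CD8 T cells had 0.0436 and 0.114 in control skins, against 0.346 and 0.281 in skin tumors (4.28-fold, log2 change 2.10, SE 0.50, adjusted p = 0.0423). In CD4 T cells 2 UMIs in control skins stood against 72 in skin tumors (ratio 17.5, 95% counting interval 4.67 to 147, adjusted p = 0.0186). In macrophages Mx1 was 0.143 and 0.264 in control skins, against 0.818 and 0.602 in skin tumors (log2 change 1.56, SE 0.31, adjusted p = 0.11). In NK cells 0 UMIs in control skins stood against 70 in skin tumors, at least 7.51-fold higher with control skins set to 3 UMIs over the group, and the gene was not tested there. In cDC2 the log2 change was 1.67 without control skin 1 and 4.02 without control skin 2. The call in CD8 T cells was lost without control skin 1 (1.40) or skin tumor 1 (1.89), and that in CD4 T cells was lost without control skin 1.

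RNA that leaks from macrophages was gauged with Lyz2 and Apoe, which T and NK cells should lack. Ctss had also been set for this gauge, and its values are not given here. Leaked RNA from neutrophils was not gauged. In T and NK cells Apoe was at 0.3% to 4.3% of its macrophage level in the same sample, and Lyz2 at 0% to 12.3%. In NK cells Lyz2 was at 0.1% and 0% in control skins and at 0.8% and 10.7% in skin tumors, and in CD4 T cells at 0.4%, 4.3%, 3.1% and 9.5%. In CD8 T cells Lyz2 was at 12.3% and 2.4% in control skins and at 1.9% and 2.2% in skin tumors. In NK cells of skin tumors the antiviral genes stood at 17.7% (Oasl2, skin tumor 1) to 173% (Ifit1, skin tumor 1) of the macrophage level. Among the genes that rose in CD4 T cells, Oasl1 stood at only 6.65% and 10.5% of the macrophage level in skin tumors, close to Lyz2 there, and the other 7 at 14.7% (Oasl2, skin tumor 1) to 119% (Ifit1, skin tumor 2). Among those that rose in CD8 T cells, the lowest were Ifit2 at 12.6% and Ifit1 at 16.7%, both in skin tumor 1. The summed level of the 5 macrophage markers was 0.23 and 0.60 UMIs per 10,000 in NK cells of control skins and skin tumors, with 0 of 5 markers at 0, against 50.5 and 78.1 in macrophages. In cDC2 it was 3.16 and 1.73, lower in skin tumors. These markers include C1qa, C1qb and C1qc, and the cDC2 gate itself required low counts of C1q genes. The level in cDC2 therefore cannot gauge macrophage RNA there.

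Genes of the response to tissue dissociation also changed in several types. Of 12 such genes, Hsp90aa1, Hspa1a and Hspa1b, which encode heat shock proteins, rose in cDC2, mast cells, CD8 T cells, CD4 T cells and Tregs, while Fosb and Junb fell in CD8 T cells and cDC1. Changes were also seen where none of the 10 antiviral genes rose, with Hsp90aa1 higher in monocyte-like cells, Hsp90aa1 and Hspa1b higher in mDC and 4 of the 12 lower in cDC1. In NK cells 2 of the 12 rose. Over all types 21 of 129 tested combinations rose and 8 fell, with a median log2 change of -0.05 against 0.02 for all genes, and 13 fell without skin tumor 1 and 21 without skin tumor 2. The part of leaked RNA and of the dissociation response in the antiviral gene levels was not tested.

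Whether the change of a gene differed between cell types was tested as the difference from its change in macrophages, with the sample as a block. Of 100 combinations of a type and a gene, 0 passed the edgeR test, where 0.404% of all combinations passed in either direction. Of the 100, 24 had an unadjusted p under 0.05 and DESeq2 also called 0. The share of all combinations at that unadjusted p is not given here. The smallest adjusted p was 0.0868, for Usp18 in CD8 T cells. For Oasl2 in cDC2 the change exceeded that in macrophages by 1.99 on the log2 scale (95% interval 0.79 to 3.20, adjusted p = 0.194). For Usp18 in cDC2 the difference was 1.43 (interval 0.14 to 2.71, adjusted p = 0.503). In monocyte-like cells the differences of the 10 genes lay between -0.59 for Ifit2 (interval -2.08 to 0.90) and 1.33 for Ifit3b (interval -0.34 to 3.01). These intervals are wide, and a missed threshold does not show that the changes were equal. Leaving out either skin tumor gave 1 call, in NK cells.

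Summed over the 10 genes, the cell types kept a broad order of levels in both groups, while single genes had other orders. Neutrophils were highest in this sum, at 17.9 and 21.7 UMIs per 10,000 in control skins, against 45.1 and 28.0 in skin tumors. Their mean sum of 36.6 in skin tumors included 15.4 of Rsad2 and 9.93 of Isg15. Monocyte-like cells (6.96 and 8.96 against 19.8 and 16.2) and macrophages (6.29 and 7.84 against 19.7 and 16.1) came next, and their ranges overlapped in both groups. Mast cells, mDC and cDC2 followed, where neighbours overlapped in skin tumors. The lowest levels in control skins were those of cDC1, Tregs, CD4 T cells, CD8 T cells and NK cells, and NK cells, lowest of all at 0.593 and 0.297, stood at 8.50 and 6.28 in skin tumors, above the T cell types. Of the 10 pairs of neighbours in this order, 6 overlapped in control skins and 8 in skin tumors. For Oasl1 macrophages were above all other types in skin tumors (4.98 to 5.37), whereas neutrophils led in control skins (2.32 to 4.27). By mean level, neutrophils ranked 1 in both groups for Ifit1, Ifit3, Ifit3b, Rsad2 and Oasl2, and 1 and 2 for Isg15. For Mx1 they ranked 7 of the 11 types in control skins and 10 in skin tumors, for Ifit2 1 and 7, and for Usp18 1 and 8. The sums are a description and were not tested, because the genes were picked with earlier results of these data known.

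Single cells were compared after each was thinned to 1000 UMIs, which left out 0 cells. The share of macrophages with a UMI of any of the 10 genes was 32.4% and 35.5% in control skins (95% Clopper-Pearson intervals 21.8 to 44.5% and 29.1 to 42.2%) and 62.2% and 57.1% in skin tumors (60.1 to 64.3% and 53.3 to 60.8%). The intervals cover the sampling of cells and not the spread between samples. Without thinning the shares were 76.1%, 83.6%, 97.4% and 95.4%. In NK cells it was 4.8% and 7.7% in control skins (1 cell in each; intervals 0.12 to 23.8% and 0.195 to 36.0%) and 41.2% and 25.5% in skin tumors (30.6 to 52.4% and 14.3 to 39.6%). Without thinning they were 38.1%, 30.8%, 72.9% and 66.7%. All 11 types had both tumors above both control skins after thinning, and 7 did without. Like counts for other sets of 10 genes are not given here, so these cannot be read as particular to the 10 genes. Median depths of NK cells were 12659.5 UMIs in control skins and 8653.5 in skin tumors. No type here is known to lack these genes, and the share in LC of control skins (362 and 316 cells) was 6.1% and 6.0% (intervals 3.85 to 9.06% and 3.66 to 9.23%), at a median of 17545 UMIs. Cells with 3 or more of the genes made up 5.6% and 3.6% of macrophages in control skins, against 15.8% and 10.4% in skin tumors, and in neutrophils 16.7%, 8.5%, 22.4% and 17.4%. UMIs of the genes were spread unevenly over cells. The 10% of macrophages with most of them held 65.1% and 64.7% of these UMIs in control skins, against 48.1% and 50.2% in skin tumors. Sampling of sparse counts raises such a share by itself, and levels were lower in control skins. No share at equal levels was computed.

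**Figure D3:**
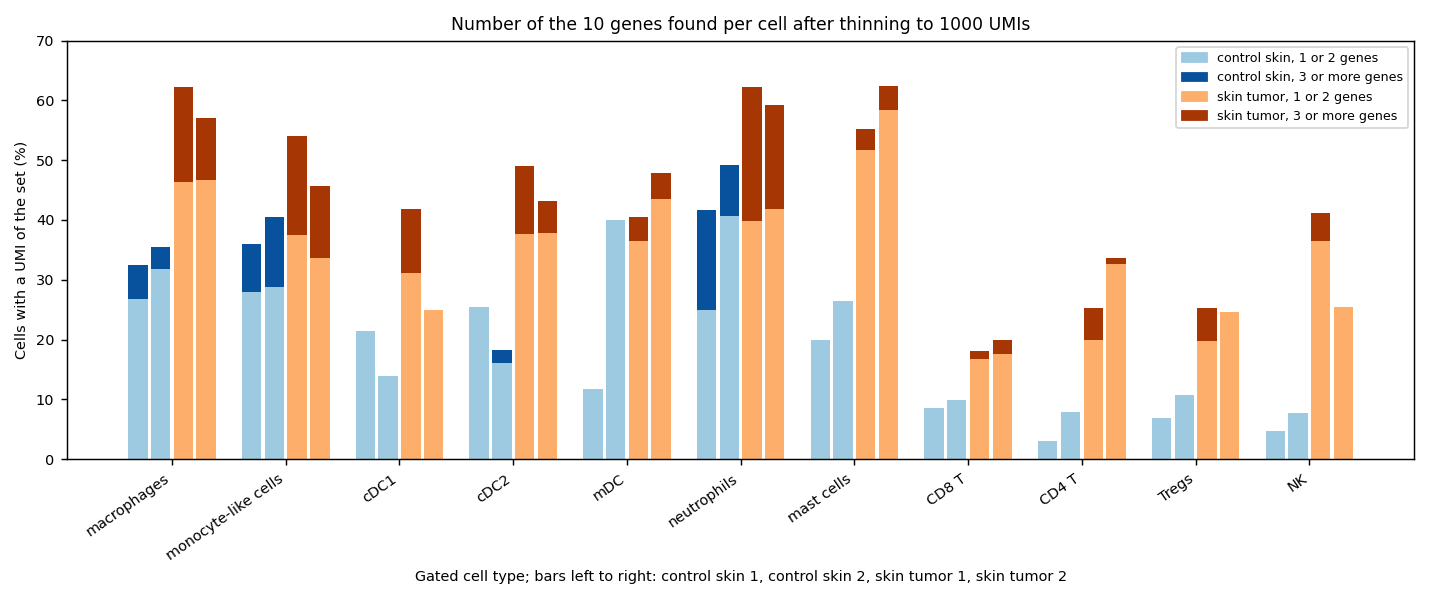
Percent of cells with a UMI of 1 or 2 and of 3 or more of the 10 genes after thinning to 1000 UMIs, per gated cell type, with 4 bars per type for control skins 1 and 2 and skin tumors 1 and 2. The bars of skin tumors are the taller ones in every type, by the least margin in mDC, where control skin 2 (10 cells) reached 40.0% and skin tumor 1 40.5%.

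The 2 skin tumors differed from each other by gene. Ifit2 was higher in skin tumor 1 than in skin tumor 2 in 10 of 11 types and the reverse held in 0. Ifit3 and Ifit3b were higher in skin tumor 1 in 9 types, and Ifit1, Oasl2 and Mx1 in 8. Isg15 went the other way, being higher in skin tumor 2 in 9 of 11 types. In cDC1, where skin tumor 2 held 12 cells, the sum over the 10 genes was 10.0 UMIs per 10,000 in skin tumor 1 and 2.41 in skin tumor 2. With 1 sample on each side these differences have no replicate check. The 11 types come from the same 2 tumors and do not count as separate observations. The share of all genes with such counts of types is not given here, so the counts cannot be read as particular to the 10 genes.

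**Figure D4:**
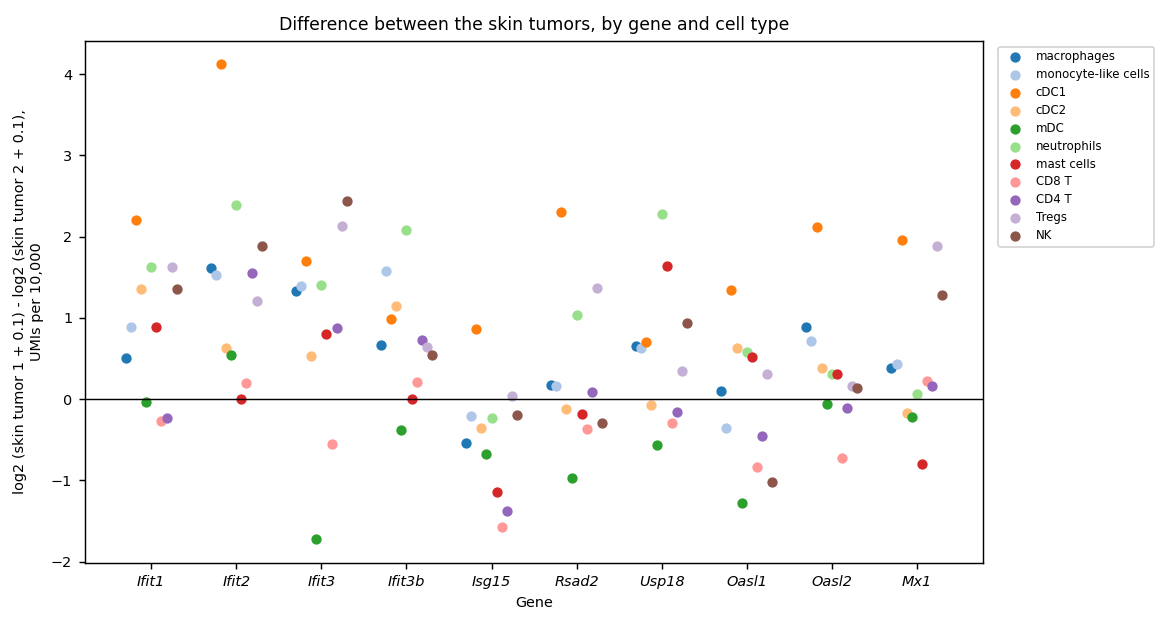
Difference between skin tumor 1 and skin tumor 2 in log2 (level + 0.1), with levels in UMIs per 10,000, for each gene (x axis) and gated cell type (points). Points above 0 are higher in skin tumor 1. Of the 11 points of each gene, 10 lie above 0 for Ifit2 and 9 lie under 0 for Isg15.

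Over all filtered cells of a sample, 9 of the 10 genes rose, where 9.99% of all genes rose. Ifit3b was the exception (log2 change 2.58, SE 0.69, adjusted p = 0.0565). Oasl1 was 0.297 and 0.62 UMIs per 10,000 in control skins, against 3.91 and 3.35 in skin tumors (7.02-fold, adjusted p = 0.0174), and Isg15 was 1.17 and 1.04 against 2.64 and 3.72 (2.56-fold, adjusted p = 0.0186). The change of Oasl1 in all cells, 2.81 on the log2 scale, was larger than the 1.15 in macrophages alone, and cell composition moved with it, whose part in the change was not tested. Macrophages were 2.4% and 7.1% of cells in control skins, against 41.9% and 34.8% in skin tumors, and held 10.7% and 21.2% of the UMIs of the 10 genes in control skins, against 65.8% and 56.4% in skin tumors. DETC held 26.4% and 15.7% in control skins. The count of 9 became 3 without control skin 1 and 5 without control skin 2, and without control skin 2 the log2 change of Oasl1 was 3.44. The call of Isg15 was lost without control skin 1 (1.41) or control skin 2 (1.26).

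**Figure D5:**
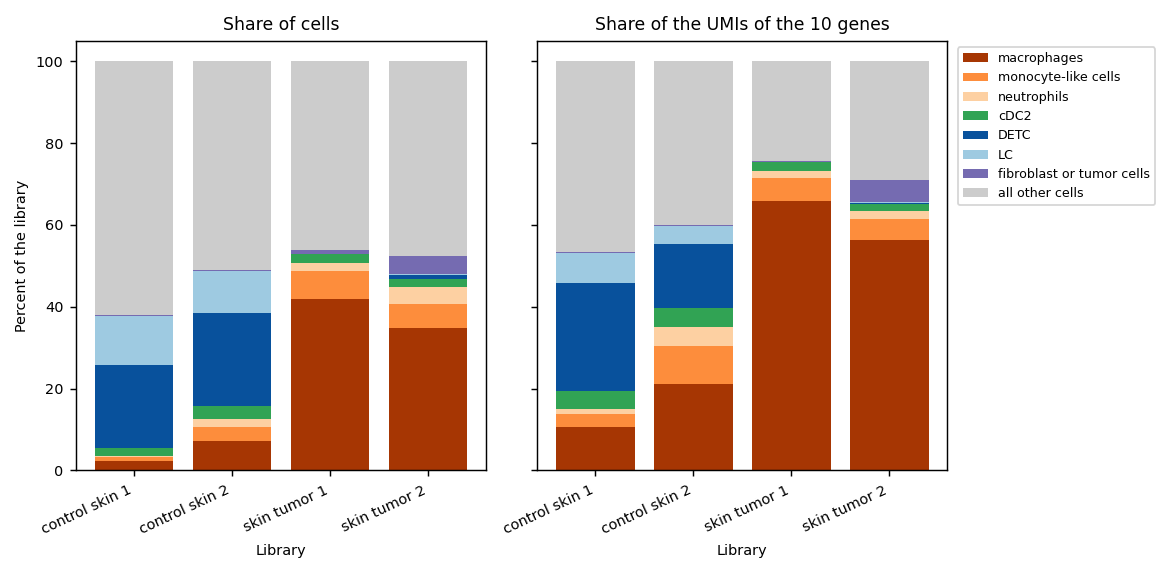
Share of cells (left) and of the UMIs of the 10 genes (right) by gated cell type, as percent of each sample. Macrophages take the largest share of these UMIs in both skin tumors, and DETC the largest of the types drawn in control skin 1. Fibroblast or tumor cells are those with counts of collagen genes.

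Among the interferon genes, Ifnb1 encodes interferon beta. Over all cells it had 2 and 23 UMIs in control skins, against 1205 and 319 in skin tumors, and it rose (log2 change 5.33, SE 0.93, adjusted p = 0.0248). The cell composition also differed between the groups, and its part in this change was not tested. By type, Ifnb1 was tested in macrophages, where it did not pass, and in cDC2. In cDC2 it was 0 and 0.00547 UMIs per 10,000 in control skins, against 0.203 and 0.555 in skin tumors (adjusted p = 0.00735), with 1 UMI in control skins, and both calls held with any 1 sample left out. Levels of Ifnb1 in macrophages are not given here. Macrophages were 41.9% and 34.8% of cells in skin tumors 1 and 2, and cDC2 only 2.2% and 1.9%. The type that held most of the Ifnb1 UMIs is therefore not shown. The Ifna genes had 0 to 3 UMIs each over all 4 samples. Ifng, the type II interferon of T and NK cells, rose in CD4 T cells, from 0.62 and 0.403 to 2.01 and 2.18 (log2 change 1.89, SE 0.27, adjusted p = 0.00813), and the call was lost without control skin 1. Of the 6 tested combinations of a type and an interferon gene, 2 rose and 0 fell.

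Among genes of interferon receptor chains, Ifnar2 fell in CD8 and CD4 T cells of skin tumors, Ifnar1 in CD4 T cells only and Ifngr2 in CD8 T cells only. In Tregs 0 of the 10 receptors and signal transducers fell. Of all genes, 4.68% fell in CD8 T cells and 3.62% in CD4 T cells. Over all types and genes, 1885 of 73037 tested combinations fell. Of the 101 tested combinations of a type and a gene of the receptors and signal transducers, 4 fell, and these became 0 without control skin 1 and 2 without control skin 2 or skin tumor 1. Ifnar2, a chain of the type I receptor, fell in CD8 T cells (log2 change -1.44, SE 0.26, adjusted p = 0.0159) and in CD4 T cells (log2 change -1.49, SE 0.25, adjusted p = 0.0147), and Ifnar1 fell in CD4 T cells (log2 change -0.84, SE 0.20, adjusted p = 0.0444). Ifngr2, a chain of the type II receptor, fell in CD8 T cells. The Ifnar2 call was lost without control skin 1 in both types, without skin tumor 1 in CD8 T cells and without control skin 2 in CD4 T cells. The Ifnar1 call was lost with any 1 sample left out, and the Ifngr2 call without skin tumor 1. Without control skin 1, Ifngr2 was not tested in CD8 T cells, and in the other fits without 1 sample its log2 change ranged from -7.29 to -2.64.

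Sensors and inducers rose in 15 of 102 tested combinations and fell in 1, with a median log2 change of 0.73, and the 15 became 9 without control skin 1, 8 without skin tumor 1 and 26 without skin tumor 2. Zbp1, a sensor of Z-form nucleic acid, rose in cDC1, cDC2, CD8 T cells, CD4 T cells and Tregs, and Irf7, the factor that amplifies interferon production, rose in cDC2, CD8 T cells and Tregs. The Zbp1 call was lost without either control skin in cDC1 and without control skin 1 or skin tumor 1 in Tregs, and the Irf7 call without skin tumor 1 in Tregs and without control skin 1 or skin tumor 1 in CD8 T cells. Ifih1, which senses long double-stranded RNA, was 0.0527 and 0.101 UMIs per 10,000 in CD4 T cells of control skins and 0.908 and 0.98 in skin tumors (log2 change 3.63, SE 0.37, adjusted p = 0.00298), a call lost without control skin 1. The enzymes that attach Isg15, Uba7, Ube2l6 and Herc6, rose in 5 of 22 tested combinations (median log2 change 1.60; 3 without control skin 1 and 9 without skin tumor 2), of which Herc6, the ligase, accounts for cDC2, CD8 T cells, CD4 T cells and NK cells. The Herc6 call was lost without either control skin in cDC2 and without control skin 2 or skin tumor 1 in CD8 T cells. Other antiviral effectors rose in 43 of 235 and fell in 4 (median 0.94), led by Ifitm3, Xaf1, Trim30a, Isg20 and Bst2, with 4 types each. Without skin tumor 2 the 43 became 82, and the 4 that fell became 2 without control skin 2 and 0 without skin tumor 1.

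Genes of the interferon gamma response rose in 38 of 168 tested combinations and fell in 0 (median log2 change 1.19, against 0.02 over all genes), and the 38 became 19 without control skin 2 and 69 without skin tumor 2. They included macrophages, where none of the 10 antiviral genes rose in the edgeR test. There Gbp5, a guanylate-binding protein, was 0.0501 and 0.0605 UMIs per 10,000 in control skins, against 0.418 and 0.398 in skin tumors (log2 change 2.67, SE 0.27, adjusted p = 0.0283). Iigp1, an immunity-related GTPase, was 0.0572 and 0.0302 in control skins, against 2.17 and 1.55 in skin tumors (log2 change 5.38, SE 0.33, adjusted p = 0.0118). Both macrophage calls were lost without either control skin. Gbp5 and Iigp1 each rose in 6 types, Psmb8 in 5, and Cxcl10 and Psmb9 in 4. The lists share targets with the type I pathway and were not tested against each other.

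Across the 44 points of 11 types and 4 samples, Rsad2 and Oasl2 were the most alike of the 10 genes (Pearson r = 0.918 of log2 levels), and Isg15 and Mx1 the least (r = 0.126). Only Isg15 passed the filter on low counts in every type, so genes of like pattern were sought for Isg15 alone among 1528 genes that passed in every type. Among the most alike were Selenok (r = 0.774), Ier3 (0.760), Prdx5 (0.760) and Lilr4b (0.748). The points share samples and depth, and r is a description.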

How the data were processed

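The authors deposited, per the labels and file headers, tables of UMI counts per gene and cell from Cell Ranger (7.1.0 in the submitters' processing notes, another 7.0 release in the file headers) with the mouse genome mm10 (GRCm38). The annotation release is not given in the sources used here, and the counts were not corrected for free RNA. The per-cell quality filters of the study were applied: a minimum of 100 genes and of 1000 UMIs per cell, a mitochondrial share up to 15%, and 0.8 or more for log10 genes over log10 UMIs. The study also removed doublets, a fibroblast cluster and a small unclear cluster. These steps were not taken in the main fits, and doublet scores entered only as an alternative. Cells were gated on marker genes, and cells that passed the gates of more than 1 type were left out. Cell types so built may differ from those of the study, which clustered the cells.

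Counts were summed per type and sample and tested between groups in R 4.3.3 with the quasi-likelihood test of edgeR 4.0.16, after filterByExpr and TMM scaling and with Benjamini-Hochberg adjustment over all genes of a type (threshold 0.05), since cells are not replicates, where the study tested over cells. All 4 samples entered each fit. The code of the fits was run on simulated counts with planted changes and the same spread for all genes. That run checks the code and not the spread between these samples. DESeq2 1.42.0 was the alternative test, beside others in counts, gates, cell filters, doublet scores and samples. With 2 samples a group an exact permutation test cannot go below p = 0.333, so shares of cells carry no p. All 10 genes were named, and of each other list at most 5, those called in the most types. The genes and lists were chosen with earlier results of these data known. Intervals and floors cover counting error only. Sequences came from the RefSeq promoter table. Part of the genotype of the tumor model, the rises among the receptors and signal transducers and 1 gene of like pattern are not reported here.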

Additional observations from a re-analysis of the deposited data

How the results depend on the processing

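Of 916 values of the 10 genes under an alternative, over all tested combinations and all cells, 721 kept their direction and their side of the threshold, 73 lost the call, 106 gained it and 16 reversed, and none of the 16 belonged to a combination that had passed the test. All 16 but 3 came from leaving out 1 sample, where the log2 change of Ifit3b ranged from -0.58 to 1.07 in macrophages, from -0.63 (without skin tumor 1) to 8.02 in monocyte-like cells and from -0.58 to 2.29 in neutrophils. In neutrophils it ranged from -1.92 (without skin tumor 1) to 2.08 for Ifit2, from -0.43 to 1.10 for Ifit3, from -0.34 to 0.95 for Usp18 and from -0.74 to 0.11 for Oasl1. It ranged from -0.094 to 1.13 for Oasl1 in mDC, and for Isg15 from -0.027 to 1.49 in CD4 T cells and from -0.49 (without skin tumor 2) to 1.52 in CD8 T cells. With gate thresholds doubled Isg15 in CD8 T cells was at -0.00215. For the genes of the other lists, 248 of 1247 lost the call. Calls of other lists moved too, with rises of dissociation genes going from 21 to 39 combinations with no filter on counts. The share of all genes that rose under each alternative, left-out samples and the replicate block included, is not given here. The count of the 10 genes that rose, by type, changed as follows, and calls were also lost in types not listed. With DESeq2 it became 4 in macrophages, 2 in monocyte-like cells, 1 in mDC, 2 in CD8 T cells and 1 in Tregs. With no filter on counts it became 8 in macrophages and monocyte-like cells, 7 in cDC1, 6 in mDC, 2 in neutrophils, 7 in CD8 T cells and Tregs and 8 in NK cells, and 9 combinations passed in the comparison with macrophages. With gate thresholds doubled it became 2 in mDC, 0 in mast cells and 0 in Tregs, and cDC1 was not run because a sample held under 10 cells. With cells of at least 500 UMIs it became 2 in cDC1, 1 in mDC and 0 in mast cells, and with doublet scores 1 in Tregs. In one fit over all types it became 1 in cDC1, mDC, CD8 T cells, Tregs and NK cells and 0 in mast cells. Outside this list, the call of Usp18 in CD4 T cells was lost in 6 of 11 alternatives, 4 of them fits without 1 sample. That of Ifit1 in cDC2 was lost in 2 of 11, with 0 of the fits without 1 sample among them. Types with both tumors above both control skins in the share of cells fell from 11 to 7 without thinning.

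With 1 sample left out, the counts ranged from 0 to 8 in macrophages, 0 to 4 in monocyte-like cells, 0 to 7 in cDC1, 6 to 10 in cDC2, 0 to 2 in mDC, 0 to 1 in mast cells, 0 to 5 in CD8 T cells, 1 to 8 in CD4 T cells, 0 to 7 in Tregs, 3 to 8 in NK cells, 0 to 1 in the comparison with macrophages and 3 to 10 in all cells.

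The samples of the groups share only a number. With the replicate block the counts were 1 in macrophages, 4 in monocyte-like cells, 3 in mDC, 2 in CD8 T cells, 1 in Tregs, 0 in NK cells and 5 in all cells, and 8 in cDC2 and CD4 T cells, and the log2 changes of Ifit2 and Usp18 in neutrophils became -0.401 and -0.687. Same-numbered samples had correlations of their deviations between -0.126 and 0.058. In CD8 T cells, where it was -0.107, the crossed pairing, chosen after seeing the data, gave 7. The crossed pairing was also run in cDC1, where the correlation was -0.126, and its count is not given here. TMM and DESeq2 size factors differed by under 0.1 on the log2 scale in the median of all genes. Control skins held as few as 10 mDC, 12 neutrophils, 13 NK cells and 15 mast cells, and skin tumor 2 held 12 cDC1, and neutrophils and mast cells had medians of 3796 and 3423 UMIs.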

Other observations

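Cells with counts of collagen genes, which stand for fibroblasts or tumor cells that passed the CD45 sort, were 7 and 9 in control skins, against 46 and 88 in skin tumors. Their Isg15 level was 3.72 and 0.396 UMIs per 10,000 in control skins, against 0.680 and 2.87 in skin tumors, and their Rsad2 level was 0 and 0 against 0.754 and 2.02. They held 0.346% of the UMIs of the 10 genes in skin tumor 1 and 5.49% in skin tumor 2. The control skins held too few of these cells for a test.

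Among the types that skin tumors nearly lacked, Isg15 in DETC of control skins was 1.94 and 1.44 UMIs per 10,000 (603 and 706 cells), while Rsad2 was 0.0556 and 0.147 and Oasl1 was 0.106 and 0.151. LC of control skins had Isg15 at 0.597 and 0.429 (362 and 316 cells). In ILC2 of control skins Isg15 was 0.956 and 0.904, and Oasl1 had 0 and 2 UMIs in 123 and 102 cells. Dermal γδT cells of control skins differed between the samples, with Isg15 at 1.88 and 0.668 and Rsad2 at 0.431 and 0.0495.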
